A study of Homo sapiens with 15 samples.

Results

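Gene expression in UKE-1 cells stimulated with TNF-α and then treated with ruxolitinib was set against that in cells given neither agent. The comparison takes in 6 of the 15 RNA-seq libraries of the study, the 3 columns of the drug group and the 3 untreated columns, and it covers the TNF-α response that is still present under the kinase inhibitor and the genes that end up below their untreated level. UKE-1 is an established human line grown from a leukaemia that followed a myeloproliferative neoplasm, and it carries an activating JAK2 mutation. Ruxolitinib blocks the kinases JAK1 and JAK2, and TNF-α is the inflammatory cytokine with which the cells were stimulated. The untreated group received neither agent, the TNF-α group the cytokine alone and the TNF-α plus ruxolitinib group both, with 3 libraries each, and RNA was taken 3 h after treatment. The titles of that last group name ruxolitinib and not TNF-α, and it was read as having both from its treatment label. The labels place the cytokine before the drug, and they state neither doses nor how long it preceded the drug. RNA made before the drug was added therefore cannot be told apart from RNA made in its presence. Whether a group's 3 libraries stem from independent cultures is also unstated, so each p-value reflects only how far libraries of a group differ, and that could be technical. By these labels no group had ruxolitinib without TNF-α, so an effect of the drug on resting cells and one on stimulated cells cannot be told apart here.

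As background, TNF-α binds its receptor and starts a kinase cascade that frees NF-κB from its inhibitors, and NF-κB then switches on genes of inflammation, adhesion and survival together with its own inhibitors. JAK kinases act one step away from this route. They sit on cytokine receptors and phosphorylate STAT proteins, some of which drive interferon-stimulated genes, while STAT5 drives growth and survival genes downstream of an activated JAK2. Cells stimulated with TNF-α can also release cytokines, among them interferons, that signal back through JAK and STAT, and JAK2 feeds the RAS-ERK cascade, which controls its own feedback inhibitors such as the dual-specificity phosphatases and Sprouty proteins.

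The 9 libraries of the 3 groups held 15593224 to 18035604 counts, and mitochondrial transcripts took 4.94% to 5.53% of them. On the first principal component, which held 72.7% of the variance, the untreated libraries lay at -28.75 to -28.68, the TNF-α libraries at 11.37 to 11.63 and the TNF-α plus ruxolitinib libraries at 17.03 to 17.36. On the second (13.3%) the TNF-α libraries lay at -11.49 to -11.17 and those with the drug at 9.61 to 10.6, so the 3 groups did not overlap. All 7 haematopoietic markers reached at least 1 FPKM, a value per transcript length, in untreated or drug libraries. So did 7 of 8 early myeloid and progenitor markers, with MPO at 0.282 FPKM in untreated cells the exception. Of the 11 erythroid and megakaryocytic markers, HBG2 and HBB had no count in the untreated and drug libraries, and ITGA2B was at 107 FPKM in untreated cells. EPCAM, KRT19 and CDH1 of the epithelial list and MS4A1 of the B cell list also had no count, and no fibroblast marker reached 1 FPKM. Other members of these lists were present. In untreated cells KRT18 and KRT8 were at 30.7 and 7.52 FPKM, and CD79A and CD79B of the B cell list at 16.2 and 3.90 FPKM. Of 7 T and NK cell markers 4 reached 1 FPKM, with NKG7 at 24.1 and CD3D at 11.05 FPKM in untreated cells.

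With TNF-α plus ruxolitinib, 2874 genes were higher and 3071 were lower than in untreated cells out of 16146 tested, which are 17.8% and 19% of them (edgeR's quasi-likelihood test, adjusted p under 0.05). Those that also changed at least 2-fold were 625 higher (3.87%) and 287 lower (1.78%). In the same test TNF-α alone gave 2275 higher (14.1%) and 2017 lower (12.5%) against untreated, and TNF-α plus ruxolitinib against TNF-α gave 832 higher (5.15%) and 1706 lower (10.6%). Scaling to library totals changed the share of higher calls from 53% to 42.4% for TNF-α alone and from 32.8% to 45.4% for the drug against TNF-α. For TNF-α plus ruxolitinib against untreated it went from 48.3% to 45.8%. These comparisons share libraries, so their values are set side by side below and each p belongs to its own comparison. In bulk RNA, fewer cells of a kind and less RNA per cell cannot be told apart.

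Most genes that TNF-α raised strongly were still above the untreated level when ruxolitinib was present. Of all tested genes 17.8% were called higher and 19% lower than untreated with TNF-α plus ruxolitinib. Of the 595 genes at least 2-fold higher with TNF-α alone, 506 (85.0%) were called higher than untreated with the drug added. A further 83 did not pass and 6 were called lower. Those 6 were IFIT1, IFIT5, OASL, SAMD9L, BATF2 and the non-coding AL445490.1, of which SAMD9L was chosen after its values were seen. Of the 73 genes at least 2-fold lower with TNF-α alone, 47 were called lower with the drug as well, 26 did not pass and none was called higher. Both comparisons use the same untreated libraries, and these counts define the sets rather than test them. With TNF-α alone 2275 genes were called higher, at any size, and 74 of these were called lower than untreated with TNF-α plus ruxolitinib. Beside that, 19% of all tested genes were called lower with TNF-α plus ruxolitinib. The 2275 genes were chosen as higher than the same untreated libraries, which by itself favours few lower calls among them.

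The protein-coding genes with the highest fold changes were genes low in untreated cells. VCAM1, an adhesion molecule that binds leukocyte integrins, was at 0, 0.0556 and 0.0595 CPM (a gene's counts over its library's total, scaled to a common depth) in the 3 untreated libraries, at 13.9, 14.1 and 15.8 CPM with TNF-α and at 18.8, 20.9 and 19.6 CPM with TNF-α plus ruxolitinib. The untreated libraries together held 2 VCAM1 counts against 980 with TNF-α plus ruxolitinib, a ratio of 502 with an exact 95% interval of 138.5 to 4149 that covers counting error only. CGN, which encodes the tight junction protein cingulin, RNF223, a RING finger gene, and WNT10A, a WNT ligand, also had 2 untreated counts each. Their ratios were 219 (60.3 to 1815), 200.2 (55.05 to 1659) and 130.5 (35.8 to 1084), all covering counting error only. CGN was at 3.68, 4.50 and 3.48 CPM with TNF-α and 6.98, 8.78 and 10.1 CPM with the drug, and RNF223 at 4.14, 3.60 and 4.91 CPM and 7.53, 7.97 and 8.13 CPM. Both were higher with the drug than with TNF-α alone (adjusted p = 0.00109 and 0.000699), with no overlap. WNT10A was at 4.49, 6.16 and 4.80 CPM with the drug.

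TRAF1, an adaptor of TNF receptors, was at 3.74, 2.94 and 3.10 CPM untreated, 103, 101 and 101 CPM with TNF-α and 129.9, 142 and 126.5 CPM with TNF-α plus ruxolitinib. Its log2 fold change against untreated was 5.35 ± 0.08 (SE, adjusted p = 4.12e-53), and the drug group was above the TNF-α group by 0.38 ± 0.05 (adjusted p = 1.19e-08). No library of 1 group overlapped another. The other genes among the 15 highest were SLC8A3, IGDCC3, MARCKS, ALCAM, CXCL10, EBI3, ANO9, CXCL11, BIRC3 and TNFAIP3. ALCAM, another adhesion molecule, went from 0.628 ± 0.138 to 24.4 ± 1.53 CPM (SD, n = 3) and MARCKS, a substrate of protein kinase C, from 0.495 ± 0.197 to 19.5 ± 1.28 CPM. ALCAM was higher with the drug than with TNF-α alone, by 0.40 ± 0.10 on the log2 scale (adjusted p = 0.00343).

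**Figure D1:**
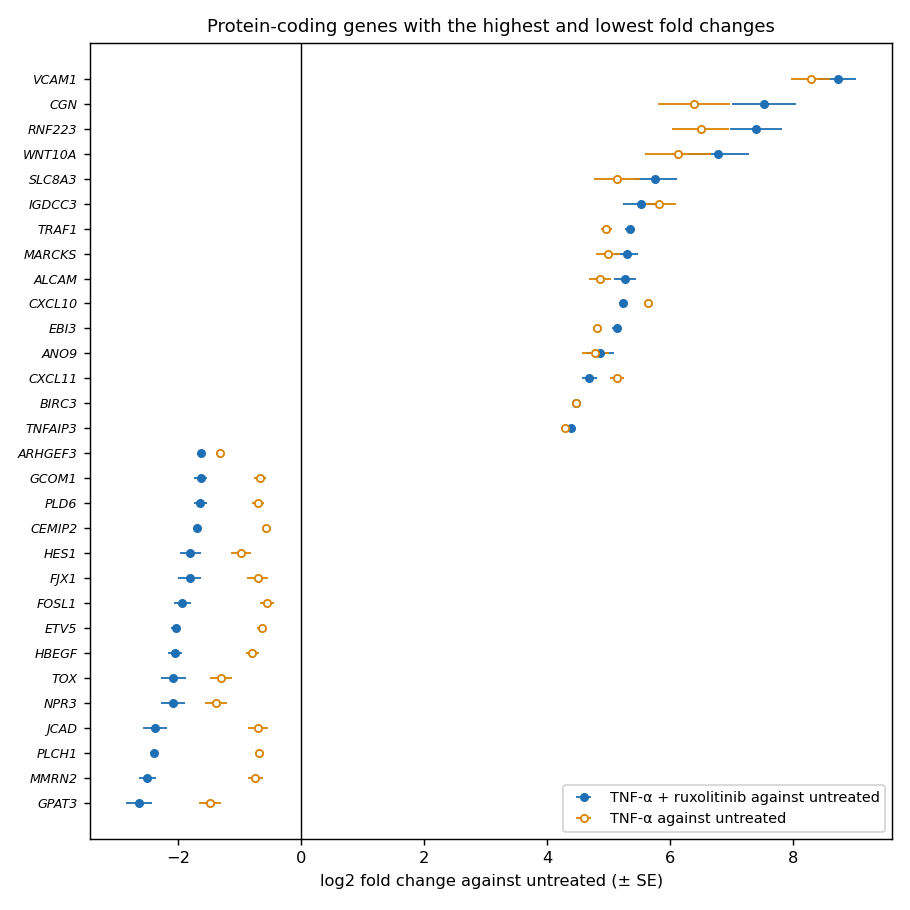
Log2 fold change against untreated (x axis, ± SE) of the 15 highest and 15 lowest protein-coding genes of TNF-α plus ruxolitinib (filled blue), chosen on those values, with TNF-α alone (open orange) beside them. The lowest genes lie between -2.63 and -1.63 with the drug and all of them lie closer to 0 with TNF-α alone. For VCAM1, CGN, RNF223 and WNT10A the fitted values rest on 2 untreated counts and depend on the prior count.

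The 15 lowest protein-coding genes fell below untreated with TNF-α and lay lower still with TNF-α plus ruxolitinib. PLCH1, a phospholipase C that cleaves membrane phosphoinositides, was at 136, 133 and 128 CPM untreated, 83.0, 86.2 and 77.8 CPM with TNF-α and 25, 25.03 and 25.3 CPM with the drug added. Its log2 fold change was -2.40 ± 0.06 (adjusted p = 1.94e-43) against untreated and -1.71 ± 0.06 against TNF-α alone (adjusted p = 1.62e-33). CEMIP2, a cell surface hyaluronidase, went from 308, 301 and 295 CPM to 92.2, 90.7 and 96.6 CPM, with 209, 199.8 and 197.5 CPM in between for TNF-α alone. GPAT3, an enzyme of triglyceride synthesis, had the lowest fold change of all at -2.63 ± 0.21, with 6.61, 7.89 and 6.19 CPM untreated and 1.15, 1.245 and 0.936 CPM with the drug. HBEGF, a ligand of the EGF receptor, went from 25.2, 25.9 and 25.1 to 7.10, 6.04 and 5.26 CPM, and HES1, a Notch target, from 11.1, 9.55 and 10.2 to 3.70, 2.74 and 2.40 CPM. MMRN2, a matrix gene of endothelial cells, went from 19.4, 18.5 and 17.3 to 2.61, 3.24 and 3.86 CPM. JCAD fell by 2.37 on the log2 scale, NPR3 by 2.08 and TOX by 2.08. FJX1, PLD6, GCOM1 and ARHGEF3 fell by 1.81, 1.64, 1.63 and 1.63, and ETV5 and FOSL1 are described with the ERK genes. The summed level of a list of 4 endothelial markers went from 305.1 to 317 CPM in untreated libraries to 217 to 227 CPM in drug libraries, with 2 of the 4 at 1 FPKM or more, and that of 5 epithelial markers from 145 to 158 CPM to 114 to 127 CPM. CDH5 made up most of the endothelial sum, at 257 CPM (42.2 FPKM) untreated and 181 CPM with the drug. Of the epithelial list only KRT18 and KRT8 had counts. KRT18 was at 98.8 CPM untreated and 69.4 CPM with the drug, and KRT8 at 51.7 and 50.05 CPM. The part of these markers in the results was not tested.

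The NF-κB subunits and inhibitors stood above the untreated level as a group. All 14 tested members of a list of 15 rose, against 17.8% of all tested genes, with a median log2 fold change of 1.67 where that of all tested genes was 0.01. The same members had a median of 1.68 with TNF-α alone and of 0.02 for the drug against TNF-α. TNIP3 was below the count filter. NFKBIA, the inhibitor that NF-κB induces to close its own loop, was at 96.8, 90.7 and 94.3 CPM untreated, 475, 485 and 495 CPM with TNF-α and 527, 559.8 and 551 CPM with TNF-α plus ruxolitinib. The drug group lay above both others in every library, 2.54 ± 0.04 above untreated (adjusted p = 2.47e-54) and 0.17 ± 0.03 above TNF-α (adjusted p = 9.08e-05).

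RELB, the subunit of the non-canonical pathway, was at 18.1, 18.9 and 18.2 CPM untreated, 180.2, 174 and 186 with TNF-α and 205, 226 and 199 with the drug, and its excess over TNF-α alone was 0.22 ± 0.04 (adjusted p = 1.35e-05). NFKB2, its partner, was at 51.3, 50.8 and 54.9 CPM untreated, 449.8, 441.5 and 467 CPM with TNF-α and 479, 493.5 and 479 CPM with the drug, 3.21 ± 0.04 above untreated. TNFAIP3, the deubiquitinase A20 that shuts the pathway down, was at 8.73, 9.78 and 10.01 CPM untreated and 201, 201 and 196 CPM with the drug, 4.39 ± 0.05 above untreated (adjusted p = 3.37e-58), and did not pass against TNF-α alone (189.9, 189.7 and 182 CPM, adjusted p = 0.0927). NFKB1, which encodes the p50 precursor, went from 117 ± 1.45 to 382 ± 2.79 CPM and REL from 15.5 ± 0.669 to 29.8 ± 4.38 CPM (SD, n = 3). RELA, the p65 subunit, was the member closest to its untreated level at 0.19 ± 0.05, and it was chosen after its values were seen.

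NF-κB binding sites carry the letters of a short near-palindrome. The kB motif, searched on both strands of the 250 bases before the RefSeq start site (GRCh38.p14), was found for 5 of the 12 members of this list with a promoter sequence (41.7%), for 8 of 15 cytokine genes (53.3%) and for 662 of 10712 tested genes (6.18%). The stretches below show it in capitals, 5′ to 3′ on the strand of the gene, for genes that rose with TNF-α plus ruxolitinib. They lie at chr14:35404811-35404840, minus strand (NFKBIA), chr6:137867194-137867223, plus strand (TNFAIP3), chr11:102317275-102317304, plus strand (BIRC3) and chr1:100719670-100719699, plus strand (VCAM1). A match is a description of the letters and not a measured binding site. Stretches here and below are printed only for genes that had a match.
NFKBIA: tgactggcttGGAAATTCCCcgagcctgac
TNFAIP3: aaagtcccgtGGAAATCCCCgggcctacaa
BIRC3: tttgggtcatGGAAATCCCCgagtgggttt
VCAM1: tccccttgaaGGGATTTCCCtccgcctctg

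In the TNF receptor signalling list most genes rose, with TRAF1, BIRC3 and TNFAIP2 the highest. Of the 25 members, all tested, 16 rose, 5 fell (TNFRSF1A, TNFRSF1B, FADD, MAP3K7 and CHUK) and 4 did not pass, with a median of 0.40. Higher calls made up 64% of the list against 17.8% of all tested genes, while the 20% of lower calls lie near the 19% of all tested genes. BIRC3, a ubiquitin ligase of the receptor complex that protects from cell death, was at 7.48, 6.05 and 7.86 CPM untreated, 158, 159.7 and 154 CPM with TNF-α and 159, 153 and 160.2 CPM with the drug, 4.47 ± 0.06 above untreated (adjusted p = 1.55e-55). TNFAIP2, a TNF-α response gene, was at 232, 235 and 239 CPM untreated and 1883, 1859 and 1955 CPM with the drug, and IKBKE, a kinase related to the IκB kinases, went from 61.3 ± 3.63 to 145 ± 0.544 CPM. TNFRSF1A, the main TNF-α receptor, was at 138, 139 and 141.5 CPM untreated and 123, 122.5 and 127 CPM with the drug (-0.16 ± 0.04), and TNFRSF1B, the second receptor, at 78.5, 80.8 and 79.7 CPM untreated and 66.4, 66.4 and 64.4 CPM with the drug (-0.28 ± 0.05). The adaptor TRADD was 0.31 ± 0.10 above untreated (adjusted p = 0.0155), and without TNF-α plus ruxolitinib replicate 2 it was 0.20 above with an adjusted p of 0.192.

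Most tested cytokine and chemokine genes rose above untreated, and some of them lay below their level with TNF-α alone. Of the 31 genes listed 20 were tested, of which 16 rose, OSM fell and 3 did not pass, and the median was 1.28 (2.11 with TNF-α alone). The 80% of higher calls stand against 17.8% of all tested genes. Against TNF-α, 8 of the 20 were lower and EBI3 was higher, beside 10.6% and 5.15% of all tested genes. CXCL8, which attracts neutrophils, was at 10.9, 12.6 and 15.96 CPM untreated, 62.0, 68.6 and 64.0 with TNF-α and 63.1, 67.1 and 61.2 with the drug. It was 2.27 ± 0.07 above untreated (adjusted p = 3.39e-31), and the difference from TNF-α was -0.03 ± 0.06 (adjusted p = 0.837). CXCL3, a related chemokine, was likewise at 56.4 ± 1.06 and 58.5 ± 3.35 CPM with TNF-α and with the drug, from 14.96 ± 1.63 CPM untreated.

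CXCL10, a chemokine for T cells that both NF-κB and interferon signals induce, was at 3.99, 4.44 and 5.30 CPM untreated, 222, 230.2 and 232 with TNF-α and 165, 182 and 172 with the drug. All drug libraries lay below all TNF-α libraries (-0.40 ± 0.04, adjusted p = 1.68e-12) and far above the untreated ones (5.24 ± 0.07, adjusted p = 7.66e-58). CXCL11, its neighbour in function, was at 1.247, 1.28 and 1.61 CPM untreated, 47.8, 49.3 and 48.8 CPM with TNF-α and 37.3, 32.8 and 36.6 CPM with the drug. EBI3, a subunit of interleukins 27 and 35, went the other way, with 156, 161 and 159.5 CPM for TNF-α and 199.6, 205 and 188 CPM for the drug (0.32 ± 0.04, adjusted p = 7.93e-08), from 6.30, 5.17 and 5.54 CPM untreated. The CXCL10 promoter holds both an interferon-type match and kB matches, whose part in its level was not tested. Stretches of it are shown here. They lie at chr4:76023699-76023728, minus strand and at chr4:76023600-76023629, minus strand, and the capitals mark the interferon-type match GAAANNGAA in the first stretch and the kB match in the second.
CXCL10: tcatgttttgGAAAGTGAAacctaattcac
CXCL10: tctgcaacatGGGACTTCCCcaggaacagc

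The lymphotoxin, TNF and IL1B transcripts lay between the untreated level and that with TNF-α alone. TNF itself was at 19.9, 17.6 and 19.8 CPM untreated, 53.4, 52.7 and 55.8 with TNF-α and 34.96, 37.7 and 37.8 with the drug, 0.95 ± 0.07 above untreated (adjusted p = 2.66e-17) and -0.55 ± 0.07 against TNF-α (adjusted p = 9.06e-10). The next 4 genes were picked with their values in view. IL1B, which encodes interleukin 1β, was at 24.7, 24.9 and 23.6 CPM untreated, 61.9, 57.8 and 58.8 CPM with TNF-α and 31.6, 32 and 32.1 CPM with the drug, so that the drug group was 0.39 ± 0.07 above untreated and -0.90 ± 0.06 from TNF-α alone (adjusted p = 2.43e-18). LTB, a membrane ligand of the lymphotoxin receptor, was at 30.8, 30 and 29.7 CPM untreated, 181.5, 181 and 198 CPM with TNF-α and 102, 103 and 98.5 CPM with the drug, and LTA, its soluble partner, at 2.56, 3.78 and 3.99 CPM untreated, 24.3, 25.2 and 22.9 CPM with TNF-α and 8.44, 9.78 and 7.90 CPM with the drug. In all 3 genes the libraries of the drug group lay between those of the other groups with no overlap. TNFSF10, the death ligand TRAIL, was 1.02 ± 0.29 above untreated (adjusted p = 0.0032), and without untreated replicate 2 this became 0.70 with an adjusted p of 0.065.

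**Figure D2:**
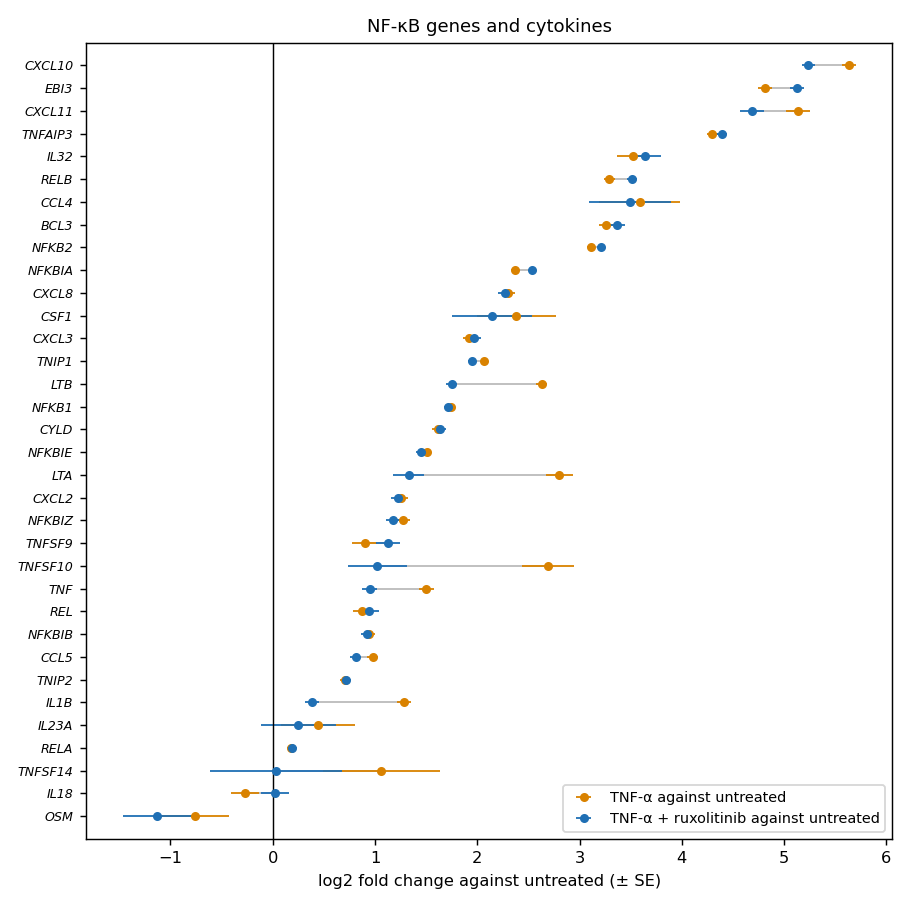
Log2 fold change against untreated (x axis, ± SE) for the 14 tested NF-κB genes and 20 tested cytokine genes with TNF-α alone (orange) and with TNF-α plus ruxolitinib (blue), joined by a grey line. The symbols lie close together for NFKB1 or CXCL8 and apart for LTA (2.80 and 1.33), TNFSF10 and IL1B.

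Adhesion and activation genes of the cell surface rose more often than they fell. Of 24 listed genes 21 were tested. Of these 12 rose and 6 fell, 3 missed the threshold, and the median was 0.54. At least 2-fold rises were seen for 7 of the 12. The shares of the list are 57.1% higher and 28.6% lower, against 17.8% and 19% of all tested genes. ICAM1, the ligand of leukocyte integrins, was at 19.6, 17.6 and 18.2 CPM untreated, 363, 366 and 391 CPM with TNF-α and 384, 379.9 and 373 CPM with the drug. It was 4.36 ± 0.05 above untreated (adjusted p = 6.7e-61) and 0.02 ± 0.04 from TNF-α alone (adjusted p = 0.776). CD83, an activation marker of antigen-presenting cells, was higher with the drug (184, 190.3 and 184 CPM) than with TNF-α (136, 129.7 and 145 CPM, adjusted p = 1.47e-13) and than untreated (16.6, 18.2 and 18.2 CPM). CD40, a co-stimulatory receptor, went from 25.1 ± 1.84 to 142 ± 4.11 CPM. CD44, the hyaluronan receptor and chosen after its values were seen, ended lower, with 1135, 1096 and 1114 CPM untreated, 1254, 1313 and 1306 CPM with TNF-α and 807, 799.6 and 797 CPM with the drug (-0.48 ± 0.03 against untreated, adjusted p = 1.56e-21).

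Interferon-stimulated genes were raised by TNF-α, and many of them lay below the untreated level once ruxolitinib was present. Of 45 listed genes 44 were tested, and 25 fell below untreated, 3 rose (IFIH1, DDX58 and OAS3) and 16 did not pass, with a median of -0.28. The list was 56.8% lower and 6.82% higher, against 19% and 17.8% of all tested genes. With TNF-α alone 41 of the 44 rose (93.2%, against 14.1% of all tested genes) and IFI16 fell (median 0.57). Against TNF-α 43 were lower with the drug (97.7%, against 10.6% of all tested genes), the exception being MX1 (median -0.91). EPSTI1 was below the count filter.

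IFIT1, which binds viral RNA that lacks the host cap, was at 32.9, 33.8 and 34.4 CPM untreated, 94.9, 98.1 and 92.5 CPM with TNF-α and 13.5, 13.1 and 10.8 CPM with TNF-α plus ruxolitinib. Its 3 groups did not overlap, and the drug group was -1.44 ± 0.08 from untreated (adjusted p = 3.33e-24) and -2.94 ± 0.07 from TNF-α (adjusted p = 6.56e-41). IFIT5, of the same family, had the lowest fold change of the list, with 11.4, 10.9 and 10.8 CPM untreated, 31.9, 34.7 and 35.5 CPM with TNF-α and 3.58, 3.42 and 4.62 CPM with the drug (-1.51 ± 0.13, adjusted p = 6.34e-15). IFIT3, which works with IFIT1, was at 32.3, 33.8 and 32.9 CPM untreated, 64.8, 63.7 and 66.3 CPM with TNF-α and 14.99, 13.6 and 16.3 CPM with the drug. LIPA, a lysosomal lipase whose gene overlaps IFIT1 and IFIT3 on the opposite strand, was at 61.0, 57.9 and 61.1 CPM untreated and 58.6, 61.8 and 55.9 CPM with the drug (-0.03 ± 0.05, adjusted p = 0.701).

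The antiviral synthetase OAS2 went from 112, 115 and 108 CPM untreated and 161, 165 and 162 CPM with TNF-α to 55.0, 53.5 and 52.4 CPM with the drug (-1.05 ± 0.05 against untreated, adjusted p = 9.97e-29). MX2, a dynamin-like antiviral GTPase, was at 12.8, 11.5 and 12.7 CPM untreated, 21.5, 21.98 and 21.1 CPM with TNF-α and 6.62, 5.73 and 5.15 CPM with the drug, and IFI44L at 28.8, 24.9 and 25.9 CPM untreated, 49.0, 47.5 and 51.0 CPM with TNF-α and 12.1, 11.02 and 10.5 CPM with the drug. ISG15, a ubiquitin-like modifier, was nearer to untreated, with 104, 98.0 and 98.5 CPM untreated and 80.1, 85.0 and 82.3 CPM with the drug (-0.28 ± 0.05, adjusted p = 6.31e-06). MX1 was at 4.71 ± 0.409 CPM untreated and 3.84 ± 0.72 CPM with the drug, a log2 difference of -0.29 ± 0.18 that did not pass (adjusted p = 0.204). IFI16, a DNA sensor, was below untreated in both TNF-α groups, at 299, 307 and 296 CPM untreated, 256, 268 and 258 with TNF-α and 188, 195 and 208 with the drug.

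The RNA sensors DDX58 and IFIH1 were above untreated. DDX58 (RIG-I) was at 21.4, 20.3 and 21.8 CPM untreated, 79.8, 83.8 and 75.7 CPM with TNF-α and 33.1, 34.2 and 33.98 CPM with the drug, so that it was still 0.67 ± 0.07 above untreated (adjusted p = 1.02e-12) although -1.24 ± 0.06 from TNF-α alone (adjusted p = 5.57e-26). IFIH1 (MDA5) was at 35.7, 35.8 and 40.1 CPM untreated, 97.0, 103.5 and 93.0 CPM with TNF-α and 58.3, 59.8 and 63.7 CPM with the drug (0.70 ± 0.06 above untreated, adjusted p = 3.84e-15). OAS3 was 0.09 ± 0.03 above untreated (adjusted p = 0.0193), and its adjusted p was 0.117 without TNF-α plus ruxolitinib replicate 1 and 0.0826 without untreated replicate 1. LIPA, DDX58, IFIH1 and OAS3 were picked with their values in view.

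**Figure D3:**
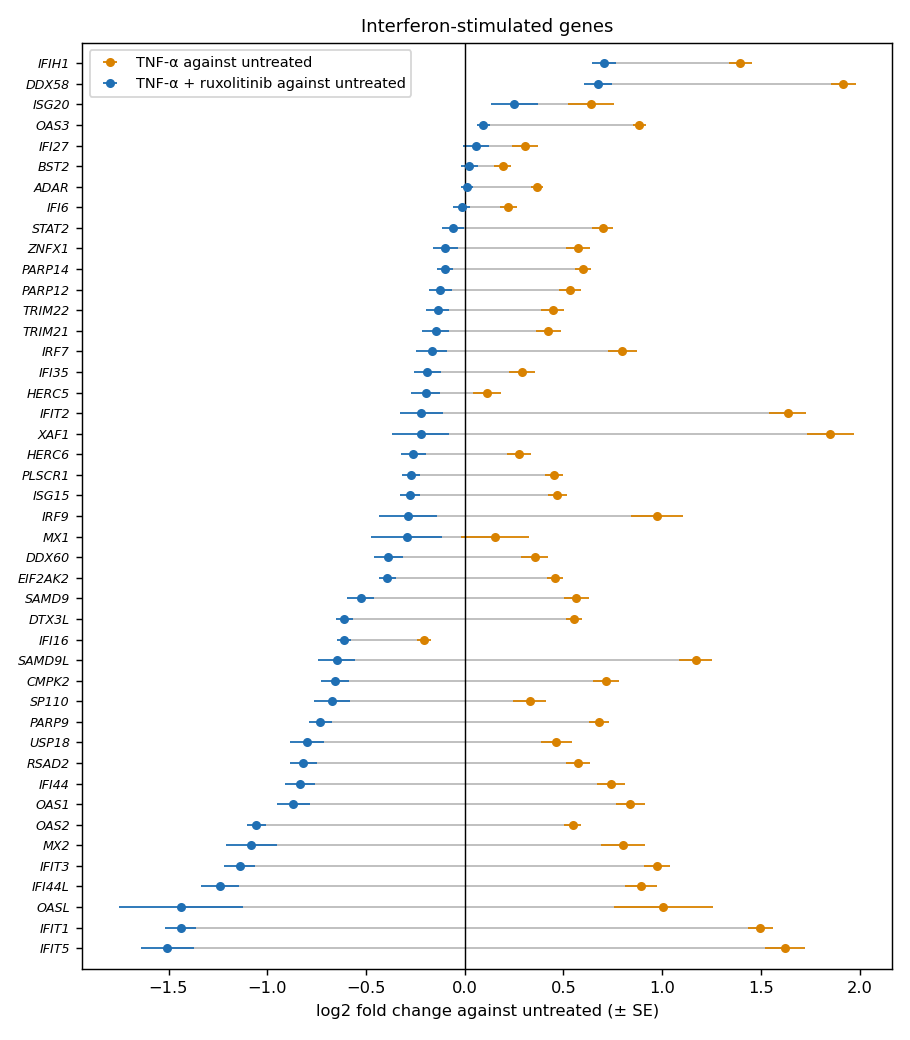
Log2 fold change against untreated (x axis, ± SE) for the 44 tested interferon-stimulated genes with TNF-α alone (orange) and with TNF-α plus ruxolitinib (blue), ordered by the latter. For each of the 44 genes the blue symbol lies to the left of the orange one, from IFIT5 at -1.51 up to IFIH1 at 0.70 for the drug group.

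The interferon-type match, the 9-letter core GAAANNGAA of the interferon-stimulated response element on either strand, was found in the 250 bases before the start of 19 of the 36 genes of this list with a promoter sequence (52.8%) and of 621 of 10712 tested genes (5.8%). A GAS core, the STAT dimer motif TTCNNNGAA, was found for 7 of the 36 (19.4%) and for 604 of the 10712 (5.64%). The kB motif was found for 5 of the 36 (13.9%). Among the 15 cytokine genes, 5 held the interferon-type match (33.3%) and 4 the GAS core (26.7%). Among the 12 NF-κB genes these were 3 (25%) and 2 (16.7%). No motif was confined to a single list. The interferon-type and GAS matches overlapped each other in 7 promoters of tested genes, the GAS and kB matches in 9 and the interferon-type and kB matches in 0. The stretches of 3 genes with large falls are printed with the match in capitals, written as it reads on the strand of the gene, and they lie at chr10:89414514-89414543, plus strand (IFIT5), chr10:89392498-89392527, plus strand (IFIT1) and chr1:78620274-78620303, plus strand (IFI44L). In IFIT5 and IFIT1 the core reads on the opposite strand, and in IFI44L on the strand of the gene.
IFIT5: tctattaagtTTCGGTTTCtgaagcttacg
IFIT1: tagctttagtTTCACTTTCccctttcggtt
IFI44L: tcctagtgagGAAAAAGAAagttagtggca

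Among the 10 lowest of the 74 genes that TNF-α raised and that lay below untreated with the drug were TNFSF8 and BATF2. TNFSF8, the ligand of CD30, was at 32.4, 32.2 and 32.2 CPM untreated, 53.1, 50.6 and 52.7 CPM with TNF-α and 13.1, 10.9 and 10.3 CPM with the drug (-1.50 ± 0.08, adjusted p = 1.11e-23). BATF2, a transcription factor of the AP-1 family, was at 5.42, 6.33 and 4.88 CPM untreated, 14.7, 16.2 and 15.5 CPM with TNF-α and 3.28, 2.68 and 2.75 CPM with the drug. OASL, an antiviral relative of the OAS synthetases, was at 2.37, 2.89 and 2.62 CPM untreated, 4.60, 4.92 and 6.33 CPM with TNF-α and 0.546, 1.37 and 0.994 CPM with the drug, levels that rest on few counts. AL445490.1, a non-coding gene that overlaps IFI6 on the opposite strand, was at 3.99, 2.17 and 2.56 CPM untreated, 9.27, 11.8 and 11.2 CPM with TNF-α and 1.09, 1.245 and 1.05 CPM with the drug.

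Genes of the IRF1, GBP and antigen presentation list mostly stayed above untreated. Of 30 listed genes 29 were tested, of which 20 rose, 2 fell, NLRC5 among them, and 7 did not pass, with a median of 0.32 (0.46 with TNF-α alone). Against 17.8% of all tested genes, 68.97% of the list were higher. IRF1, a transcription factor that interferon γ and NF-κB both induce, was at 9.73, 6.83 and 9.47 CPM untreated, 28.3, 32.2 and 29.1 CPM with TNF-α and 22.6, 23.9 and 22.7 CPM with the drug. It was 1.42 ± 0.11 above untreated (adjusted p = 1.68e-16) and -0.37 ± 0.09 from TNF-α (adjusted p = 0.00186). GBP5, a guanylate-binding protein, was at 4.05, 4.67 and 6.01 CPM untreated, 38.6, 41.5 and 38.4 CPM with TNF-α and 25.7, 26.6 and 26.4 CPM with the drug, and the peptide transporter TAP1 at 27.8, 29.4 and 25.2 CPM untreated, 72.8, 72.1 and 71.3 CPM with TNF-α and 54.1, 58.1 and 52.0 CPM with the drug. Both lay between the other groups without overlap. CIITA, the master regulator of MHC class II genes, was highest with the drug, at 188, 186 and 191 CPM against 159.8, 158 and 159.8 CPM with TNF-α (adjusted p = 2.12e-06) and 55.8, 55.3 and 53.2 CPM untreated, and TAPBP, which loads peptides on MHC class I, went from 123 ± 1.53 to 287 ± 8.54 CPM.

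NLRC5, the regulator of MHC class I genes and chosen after its values were seen, was at 46.3, 45.9 and 41.8 CPM untreated, 44.8, 44.9 and 40.99 CPM with TNF-α and 27.8, 28.1 and 32.7 CPM with the drug.

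Transcripts of the JAK-STAT machinery itself were above untreated more often than below. Of 34 listed genes 33 were tested. Of these 18 rose, 6 fell and 9 missed the threshold, and the median was 0.25 (0.27 with TNF-α alone and -0.01 for the drug against TNF-α). This is 54.5% higher and 18.2% lower, the latter near the 19% of all tested genes. JAK1 was at 271, 288 and 272 CPM untreated and 361, 347 and 357 CPM with the drug (0.36 ± 0.03), and JAK2 at 31.99, 34.1 and 34.1 CPM untreated and 48.7, 44.95 and 47.4 CPM with the drug (0.49 ± 0.06, adjusted p = 2.41e-09). TYK2, a further JAK kinase, went from 143.5 ± 4.996 to 325 ± 21.2 CPM and STAT5A from 314 ± 18.9 to 517 ± 20.1 CPM. IFNGR2, a chain of the interferon γ receptor, rose most, from 6.74, 6.44 and 7.15 CPM to 49.7, 51.4 and 50.6 CPM (2.90 ± 0.09, adjusted p = 1.84e-37), with 48.0, 54.9 and 51.4 CPM for TNF-α alone. CSF2RB, the shared chain of the GM-CSF and interleukin 3 receptors, rose by 1.04 and IL6ST, the shared chain of the interleukin 6 family, by 1.00. SH2B3, a negative regulator of JAK2 chosen after its values were seen, was at 222, 218 and 230.1 CPM untreated, 296, 308 and 314 CPM with TNF-α and 184, 174 and 185 CPM with the drug, and so ended below untreated.

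STAT5 target genes were lower in the majority and the PIM kinases were higher. Of 18 listed genes 17 were tested, 10 fell, 4 rose (PIM1, PIM2, PIM3 and BCL6) and 3 did not pass, with a median of -0.49 (0.00 with TNF-α alone). Lower calls were 58.8% of the list and 19% of all tested genes, higher calls 23.5% and 17.8%. CISH, a feedback inhibitor that STAT5 induces, was at 31.2, 29.4 and 29.8 CPM untreated, 24, 20.8 and 23.8 CPM with TNF-α and 13.7, 13.3 and 14.4 CPM with the drug, -1.13 ± 0.10 from untreated (adjusted p = 2.84e-15) and -0.73 ± 0.10 from TNF-α (adjusted p = 4.75e-08). BCL2L1, which encodes the survival protein BCL-XL, was at 96.9, 98.7 and 100.5 CPM untreated, 96.1, 96.6 and 104 CPM with TNF-α and 66.0, 67.0 and 61.8 CPM with the drug. Its log2 difference was 0.00 for TNF-α alone and -0.61 ± 0.05 with the drug (adjusted p = 1.58e-16). GFI1B, a repressor of blood cell development, was at 316, 303.5 and 305 CPM untreated, 227.5, 230.2 and 248 CPM with TNF-α and 136.5, 138 and 125 CPM with the drug, and ID1, an inhibitor of differentiation, at 105, 91.8 and 98.9 CPM untreated, 58.4, 62.0 and 63.5 CPM with TNF-α and 42.5, 42.1 and 43.05 CPM with the drug. The cyclin CCND3 was at 649.8, 638 and 645 CPM untreated, 497, 500.3 and 506.5 CPM with TNF-α and 378, 396 and 379 CPM with the drug. PIM1, a survival kinase, was at 19.6, 22.1 and 22.6 CPM untreated, 40.5, 42.9 and 43.4 CPM with TNF-α and 30.7, 34.9 and 31.5 CPM with the drug, 0.59 ± 0.07 above untreated (adjusted p = 6.94e-11).

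CISH is shown because its promoter holds 4 GAS cores in the 250 bases searched, of which those 230 and 112 bases before the start are printed, at chr3:50611985-50612014, minus strand and chr3:50611867-50611896, minus strand, with the core in capitals. IRF1, which with the drug lay above untreated but below TNF-α alone, holds 1 such core at chr5:132490878-132490907, minus strand.
CISH: tcctggaaagTTCTTGGAAatctgtcaaag
CISH: aagacgctgcTTCCGGGAAgggctggaacg
IRF1: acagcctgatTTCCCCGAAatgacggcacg

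Many feedback genes of the ERK cascade fell, and several immediate-early genes rose. Of 29 listed genes 28 were tested. Of these 14 fell, 9 rose and 5 missed the threshold, and the median was -0.27 (0.23 with TNF-α alone). The list was 50% lower and 32.1% higher, against 19% and 17.8% of all tested genes. DUSP6, a phosphatase that switches off ERK and is switched on by it, was at 79.4, 77.8 and 78.7 CPM untreated, 75.0, 72.0 and 73.8 CPM with TNF-α and 35.6, 31.5 and 34.9 CPM with the drug. It was -1.21 ± 0.06 from untreated (adjusted p = 8.08e-28) and -1.11 ± 0.06 from TNF-α (adjusted p = 5.27e-25), and the drug libraries overlapped with no others. DUSP5, another ERK phosphatase, was at 141, 138 and 136 CPM untreated, 108, 104.5 and 104.5 CPM with TNF-α and 47.8, 50.1 and 49.6 CPM with the drug. ETV5, an ETS factor downstream of ERK, was at 43.8, 42.4 and 44.2 CPM untreated, 27.02, 28.2 and 28.3 CPM with TNF-α and 9.41, 11.02 and 11.2 CPM with the drug (-2.04 ± 0.08, adjusted p = 2.03e-31), and FOSL1, an AP-1 subunit, at 15.6, 14.5 and 16.02 CPM untreated, 10.1, 9.85 and 11.5 CPM with TNF-α and 4.07, 4.05 and 3.98 CPM with the drug. EGR1, an early growth response factor, was low throughout, at 4.86, 4.39 and 3.75 CPM untreated and 1.94, 1.62 and 1.81 CPM with the drug (-1.27 ± 0.22).

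Not all genes of the list followed. DUSP4 was at 44.2, 38.9 and 38.9 CPM untreated, 129.9, 128.5 and 136 CPM with TNF-α and 52.0, 51.2 and 51.7 CPM with the drug, and so ended 0.35 ± 0.05 above untreated (adjusted p = 2.74e-07). JUNB, an AP-1 subunit, was at 48.3, 44.5 and 46.0 CPM untreated, 151, 158 and 158 with TNF-α and 167, 166 and 152 with the drug, and IER5 at 29.5, 25.8 and 27.8 CPM untreated, 73.9, 73.1 and 72.8 CPM with TNF-α and 73.9, 77.2 and 72.2 CPM with the drug. In both, the drug and TNF-α libraries overlapped. DUSP10, a phosphatase of the stress kinases p38 and JNK chosen after its values were seen, was highest with the drug, at 64.6, 64.3 and 60.6 CPM against 48.5, 46.2 and 48.5 CPM with TNF-α and 21.9, 24.5 and 23.2 CPM untreated.

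**Figure D4:**
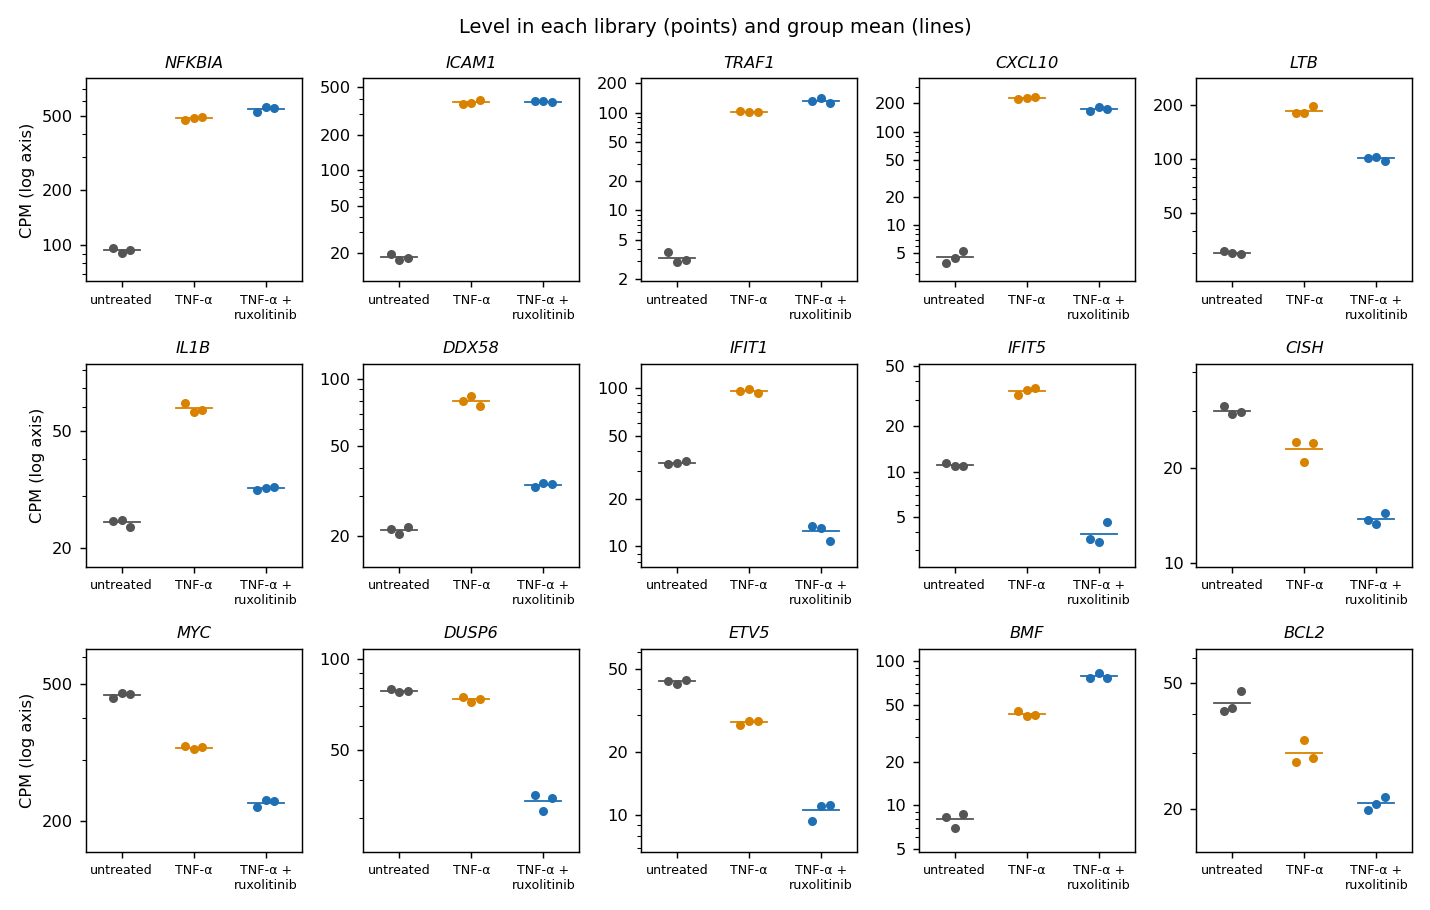
CPM on a log axis for 15 genes in each of the 3 libraries of the untreated, TNF-α and TNF-α plus ruxolitinib groups (points, lines for the group mean), each panel with its own scale. NFKBIA and ICAM1 lie far above untreated with and without the drug, LTB, IL1B and DDX58 lie between the groups, IFIT1, CISH, MYC and DUSP6 lie below untreated, and BMF lies above both others. The libraries of the untreated and the drug group do not overlap in any panel.

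MYC and the genes of ribosome production were lower. MYC, a driver of growth, was at 456, 469.9 and 468 CPM untreated, 329.9, 323 and 327 CPM with TNF-α and 219.6, 230.0 and 229 CPM with the drug, -1.04 ± 0.04 from untreated (adjusted p = 2.8e-34) and -0.53 ± 0.04 from TNF-α (adjusted p = 5.31e-19). Of the 38 ribosome biogenesis and MYC-linked genes 34 fell, none rose and 4 did not pass (FBL, NOP2, NME1 and IPO4), with a median of -0.39. The 89.5% of lower calls stand against 19% of all tested genes. With TNF-α alone 19 fell (50%, against 12.5% of all tested genes) and none rose (median -0.12). With the drug 31 were lower than with TNF-α (81.6%, against 10.6% of all tested genes, median -0.27). POLR1B, a subunit of the polymerase that makes ribosomal RNA, was at 103, 103 and 101 CPM untreated, 80.1, 84.0 and 82.2 CPM with TNF-α and 57.7, 57.5 and 57.5 CPM with the drug (-0.83 ± 0.05, adjusted p = 2.02e-23). RRS1, a factor of the large ribosomal subunit, was at 93.2, 91.4 and 94.6 CPM untreated, 67.9, 72.3 and 73.9 CPM with TNF-α and 52.6, 49.6 and 49.3 CPM with the drug, and WDR43 at 156.5, 153 and 159.6 CPM untreated, 125, 129 and 129.8 CPM with TNF-α and 93.0, 93.9 and 92.2 CPM with the drug. The changes of DDX21, a nucleolar helicase (-0.50 ± 0.03), and NOP56, a component of the ribosomal RNA methylation complex (-0.40 ± 0.03), were smaller, though no drug library of either overlapped an untreated one.

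Among regulators of apoptosis, the BH3-only genes BMF, BIK and BBC3 rose, BCL2 and BCL2L1 fell, and BCL2A1 and FAS rose. Of 24 listed genes 23 were tested. Of these 10 rose, 4 fell (BCL2, BCL2L1, MCL1 and TNFRSF10A) and 9 did not pass, with a median of 0.10. That is 43.5% higher and 17.4% lower, against 17.8% and 19% of all tested genes, so the share of lower calls is near that of all genes. MCL1 was -0.11 ± 0.04 from untreated, and this did not pass without TNF-α plus ruxolitinib replicate 1 (-0.10, adjusted p = 0.0536) or untreated replicate 2 (-0.08, adjusted p = 0.116). BMF, a protein that neutralizes the survival members, was at 8.23, 7 and 8.75 CPM untreated, 45.4, 41.8 and 42.2 CPM with TNF-α and 76.7, 83.1 and 76.8 CPM with the drug. The 3 groups were apart, with the drug 3.31 ± 0.08 above untreated (adjusted p = 5.94e-43) and 0.87 ± 0.06 above TNF-α (adjusted p = 3.12e-18). BIK, of the same kind, was at 0.125, 0.611 and 0.298 CPM untreated, 1.249, 1.502 and 1.74 CPM with TNF-α and 2.55, 1.81 and 1.93 CPM with the drug, and BBC3 (PUMA), also of that kind, was at 16.7, 16.7 and 17.8 CPM untreated, 28.7, 30.3 and 29.9 CPM with TNF-α and 41.3, 42.03 and 41.99 CPM with the drug. BCL2, a survival protein, was at 40.8, 41.8 and 47.4 CPM untreated, 28.2, 33.1 and 29.1 CPM with TNF-α and 19.8, 20.7 and 21.9 CPM with the drug (-1.06 ± 0.07 against untreated). BCL2A1, a survival member and a known NF-κB target, rose, from 3.49, 3.06 and 2.86 CPM to 11.5, 12.9 and 11.4 CPM, as did the death receptor FAS, from 8.48, 8.39 and 7.27 CPM to 22.5, 22.9 and 25.03 CPM.

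Genes that FOXO factors induce, or that restrain PI3K signalling, were above untreated in 12 of 20 cases, 2 fell (IRS2 and CITED2) and 6 did not pass, with a median of 0.17. The 60% higher and 10% lower stand against 17.8% and 19% of all tested genes. KLHL24 was at 6.67, 7.17 and 6.67 CPM untreated, 8.35, 7.93 and 6.52 CPM with TNF-α and 12.99, 12.4 and 13.6 CPM with the drug, and CCNG2, an atypical cyclin, at 13.1, 14.8 and 10.8 CPM untreated, 17.03, 14.5 and 15.3 CPM with TNF-α and 26.4, 27.3 and 23.6 CPM with the drug. In both, the drug libraries were higher than all others, 0.78 ± 0.11 and 0.72 ± 0.09 above TNF-α (adjusted p = 1.57e-07 and 3.53e-09). PIK3IP1, an inhibitor of PI3K, went from 8.54, 8.28 and 8.93 CPM untreated to 16.5, 15.8 and 15.2 CPM with the drug (0.88 ± 0.11). IRS2, an adaptor of the insulin receptor, went from 58.9 ± 1.11 to 33.1 ± 0.535 CPM, and CITED2, a transcription co-regulator, from 159 ± 4.58 to 116 ± 4.57 CPM.

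Genes of DNA replication and mitosis moved little from the untreated level at this time. Of 24 replication genes 6 rose, 2 fell (CDC6 and UHRF1) and 16 did not pass, with a median of 0.05, and all of them lay between -0.16 and 0.24. The 25% of higher and 8.33% of lower calls compare with 17.8% and 19% of all tested genes, so the rises are not far from the share of all genes. The 6 became 3 without TNF-α plus ruxolitinib replicate 2, without untreated replicate 3 or without the count filter, and the 2 became 4 with library totals. E2F1, a driver of replication genes, was at 73.4, 74.8 and 74.7 CPM untreated and 86.5, 89.5 and 87.1 CPM with the drug (0.24 ± 0.05, adjusted p = 1.47e-05). PCNA, the polymerase clamp, was at 418, 421 and 410.5 CPM untreated and 459.5, 464 and 460.1 CPM with the drug. Of 20 mitosis genes 5 rose (BUB1, BUB1B, TTK, AURKB and CCNB2), 3 fell (UBE2C, CCNA2 and TOP2A) and 12 did not pass. These shares of 25% and 15% are likewise near 17.8% and 19%. With TNF-α alone 3 replication genes (12.5%) and 7 mitosis genes (35%) fell, against 12.5% of all tested genes, and 1 mitosis gene rose. Against TNF-α, 5 replication genes (20.8%) and 7 mitosis genes (35%) were higher with the drug, beside 5.15% of all tested genes. None was lower, and the medians were 0.07 and 0.10. MKI67, the proliferation marker, was at 783, 777 and 792 CPM untreated and 808, 749.5 and 836 CPM with the drug (0.03 ± 0.03, adjusted p = 0.612), and PLK1, a mitotic kinase, was at 179.5 ± 5.51 and 175 ± 5.01 CPM.

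The stress and sterol lists had members on both sides. Of 17 NRF2 targets 5 rose, TXNRD1 and ABCC1 fell and 10 did not pass, with a median of -0.01. Here 29.4% were higher and 11.8% lower, where 17.8% and 19% of all tested genes were. SQSTM1, the autophagy receptor p62, rose most, from 185, 173 and 183 CPM untreated to 497, 496 and 478 CPM with the drug, with 432, 446.5 and 458 CPM for TNF-α alone (1.44 ± 0.03, adjusted p = 6.11e-43). ABCC1, a drug efflux pump, was at 262, 265 and 255.5 CPM untreated, 201, 191 and 194 CPM with TNF-α and 162, 168 and 158 CPM with the drug. HMOX1 was at 0.765 ± 0.302 CPM untreated and 0.529 ± 0.317 CPM with the drug, which did not pass (adjusted p = 0.353). Of 18 tested ATF4 and amino acid genes 9 (50%) rose and 6 (33.3%) fell, against 17.8% and 19% of all tested genes. The amino acid transporter SLC7A5 was at 509.5, 509.7 and 516 CPM untreated, 422, 421 and 428 CPM with TNF-α and 315, 316 and 302 CPM with the drug (-0.72 ± 0.03), STC2, a secreted glycoprotein, at 23.2, 22.9 and 23.1 CPM untreated, 16.04, 12.7 and 16.8 CPM with TNF-α and 9.83, 10.1 and 8.30 CPM with the drug, and CHAC1, which degrades glutathione, rose by 0.73. DDIT3 was 0.40 ± 0.14 above untreated, and its adjusted p was 0.0558 without TNF-α plus ruxolitinib replicate 1, 0.127 without replicate 2 and 0.167 without untreated replicate 3. Of 16 tested cholesterol genes 9 rose, 3 fell, INSIG1 and IDI1 among them, and 4 did not pass, and all lay between -0.21 and 0.33. The higher calls are 56.25% of that list, against 17.8% of all tested genes. The lower calls, 18.75% of that list, are near the 19% of all tested genes. SQLE, an enzyme of that pathway, was at 412 ± 8.85 CPM untreated and 486 ± 15.7 CPM with the drug.

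**Figure D5:**
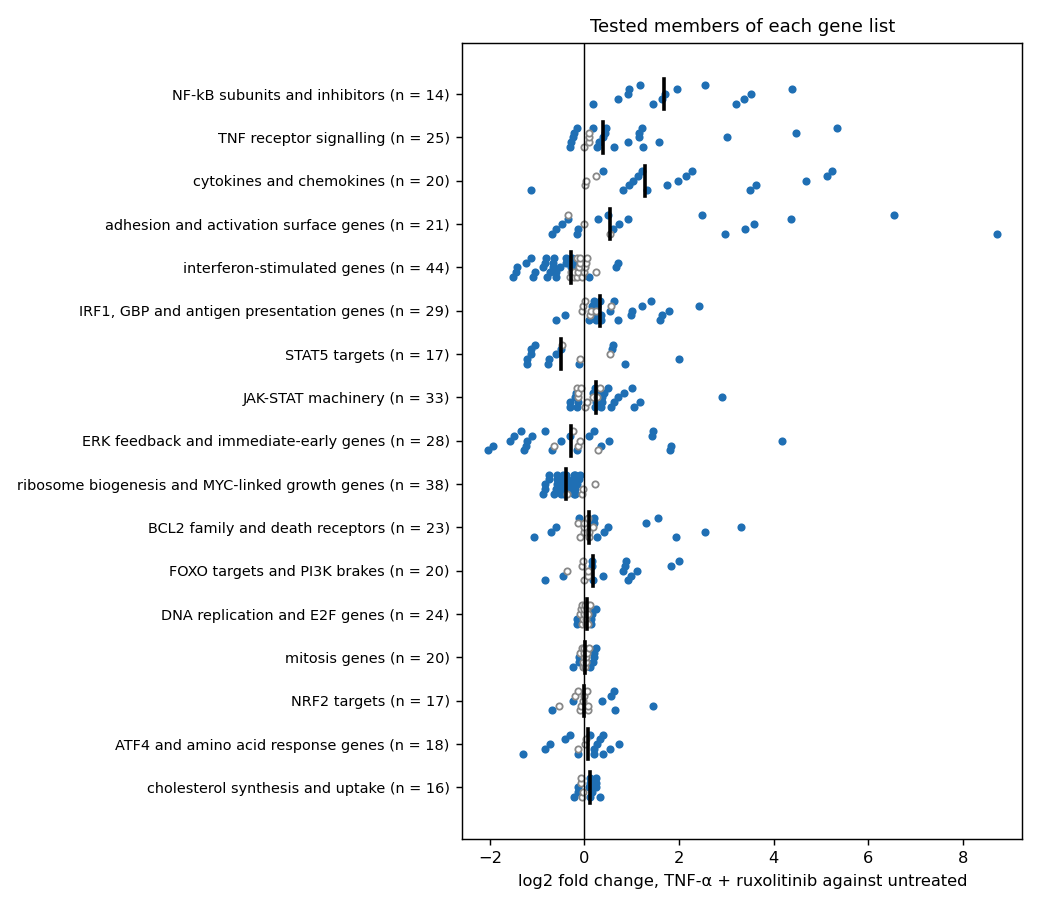
Log2 fold change of TNF-α plus ruxolitinib against untreated (x axis) for every tested member of the 17 gene lists (y axis), filled blue where it passed and open grey where it did not, with a black bar at the median of the list. Medians run from -0.49 for STAT5 targets to 1.67 for the NF-κB genes, and the replication and mitosis lists stay within 0.24 of 0.

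No source used here says whether reads were counted by strand, so reads of genes that overlap on opposite strands cannot be told apart. Among the genes described, a tested gene on the opposite strand overlaps TNFAIP3, CISH, BCL2L1, GFI1B, TAP1, CIITA, IRF1, IFNGR2, FAS, IKBKE, DUSP6, JUNB, MMRN2, TOX, PLD6, SQSTM1, ISG15, RELA, TRADD, CHUK, CD44, JAK1, IL6ST, SH2B3, CITED2, TNFRSF10A, CCNA2, DDIT3, IPO4, IFI6 and AL445490.1, besides IFIT1, IFIT3 and LIPA. CXCL2 and CXCL3 have similar sequences, and how reads that fit several genes were counted is not given either.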

How the data were processed

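The deposited table held raw counts per gene, whole numbers of reads, for 58735 genes. Per the submitters' processing notes, the tools were DESeq2 1.16.1, featureCounts 1.5.0-p3 and HISAT2 2.0.5, and both hg38 and mm10 appear as builds, with no role given. Strand setting, read filters and the handling of reads that match several places: not given in the sources used here. Columns headed as control were read as the untreated group. The filterByExpr function of edgeR (minimum count 10) kept 16146 genes. With edgeR 4.0.16 in R 4.3.3, 1 model with a term per group was fitted over all 15 libraries (10 residual degrees of freedom, TMM scaling, robust quasi-likelihood F-test), and p-values were adjusted over all tested genes by Benjamini-Hochberg. A gene was called at an adjusted p under 0.05. The biological coefficient of variation was 0.04, so small changes pass. Levels are CPM with TMM scaling, and the SE was obtained from the F statistic as log2 fold change over root F. Pairs of libraries within a group differed by more than counting noise (chi-square per degree of freedom 2.02 to 4.07). The steps were also run on simulated counts with the same spread for all genes, which is simpler than these data. That run checks the steps only and does not bear on the calls given here.

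Named by rule were the 15 highest and 15 lowest protein-coding genes that passed, reached 5 CPM in 1 group and did not overlap between groups. The first 3 genes of each list, up to 4 passing members with the smallest p, the 10 lowest genes raised by TNF-α but below untreated, and 5 non-coding genes in each direction were added. The remaining named genes were picked with their values in view, among them list members named because few of a list moved one way. The comparison, its members and the lists were chosen with earlier results of these data known. Promoters are from RefSeq (GRCh38.p14), matched by symbol or by an older symbol for 10712 of 16146 tested genes. Alternatives were DESeq2 1.42.0, its size factors, library totals, other filters, only the groups compared, the replicate block and leaving out each library. Some members of the lists are counted but not reported here by name.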

Additional observations from a re-analysis of the deposited data

How the results depend on the processing

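The counts of genes called with TNF-α plus ruxolitinib against untreated stayed within 1.5 times of 2874 higher and 3071 lower under DESeq2 (2609 and 2894), DESeq2 size factors, library totals (2720 and 3217), no filter, a stricter filter and the 2 groups alone. Leaving out 1 library gave 2550 to 2686 higher and 2756 to 2874 lower, and 610 to 638 and 272 to 286 at 2-fold or more. With the replicate block, which pairs libraries by number, there were 2896 and 3088. Deviations of same-numbered libraries correlated at -0.03, 0.13 and 0.13. TNF-α plus ruxolitinib replicates 2 and 3 correlated best with the untreated library of the same number, though replicate 3 was close with untreated replicate 1 (0.11). Replicate 1 correlated best with untreated replicate 2 (0.12). The match by number was mixed and weak, and the numbers were not taken to pair the samples. Of 175 genes named and called, 168 kept their call under every alternative tried. The exceptions were TRADD, DDIT3, NQO1, MCL1, OAS3, SPRY4 and TNFSF10, and no direction was reversed. NQO1 was 0.44 without TNF-α plus ruxolitinib replicate 2 (adjusted p = 0.0975) and SPRY4 -1.04 without untreated replicate 1 (adjusted p = 0.115). With few counts, as for OASL or WNT10A, fold changes are imprecise. Where an alternative changed a value or a call, the cause was not tested.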

Other observations

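Some genes that mark blood lineages differed and others did not, and those named here were picked with their values in view. The summed level of the 8 early myeloid and progenitor markers was 2069 to 2078 CPM in untreated libraries and 2056 to 2072 CPM with TNF-α plus ruxolitinib, and that of the 11 erythroid and megakaryocytic markers 1198 to 1212 CPM and 1155 to 1166 CPM. Within these lists GATA2 and MYB rose by 0.12 and 0.25 on the log2 scale (adjusted p = 0.0038 and 1.28e-06). CD34, LYZ, GATA1, PF4 and ITGA2B did not pass, with log2 differences of -0.02, -0.03, 0.07, -0.13 and -0.03. SPI1, the myeloid transcription factor PU.1, rose from 133, 128 and 135 CPM in untreated cells to 229, 239 and 228 CPM with TNF-α plus ruxolitinib (log2 fold change 0.81 ± 0.04, adjusted p = 1.23e-26), with 218, 221 and 215 CPM for TNF-α alone. CEBPA, another myeloid factor, fell from 29.1, 25.6 and 28.7 CPM to 12.6, 12.4 and 10.2 CPM (-1.25 ± 0.10, adjusted p = 5.68e-17), with 15.6, 15.7 and 13.8 CPM for TNF-α alone. The surface receptor CD33 fell from 76.0, 79.2 and 73.7 CPM to 49.2, 50.6 and 48.8 CPM, and TAL1, a factor of blood stem and erythroid cells, from 384, 379 and 381 CPM to 273, 263 and 265 CPM. KIT, the stem cell factor receptor, was lowest with TNF-α alone (19, 21.9 and 20.6 CPM), with 39.7, 37.4 and 40.2 CPM untreated and 27.98, 26.8 and 27.1 CPM with the drug. GP1BA, a platelet receptor subunit, was at 137, 129 and 126 CPM untreated, 275, 279.5 and 279.6 CPM with TNF-α and 234, 233 and 218 CPM with the drug.

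Of 1844 lincRNA and antisense genes tested, 203 were called higher (11%) and 123 lower (6.67%), against 17.8% and 19% of all tested genes. MIR3142HG, the host gene of miR-146a, which restrains NF-κB signalling, rose from 9.23, 7.94 and 8.58 CPM to 44.5, 42.1 and 41.6 CPM (2.32 ± 0.09, adjusted p = 1.35e-32). AC148476.1 went from 1.01 ± 0.372 to 5.74 ± 0.227 CPM (SD, n = 3), and AL357060.1, AC090673.1 and AC008105.3 rose by 1.60, 1.49 and 1.45 on the log2 scale. AL357060.1 overlaps TNFAIP3, AC090673.1 overlaps HMGA2 and AC008105.3 overlaps FMNL1, each on the opposite strand. LINC00887 fell from 4.55, 6.33 and 4.82 CPM to 1.40, 1.99 and 1.17 CPM, and C20orf197, AP000866.2 and CACNA1C-AS1 fell by 1.29, 1.21 and 1.11. AL138889.1 went from 8.78 ± 0.442 to 3.93 ± 0.213 CPM. AP000866.2 overlaps ESAM, AL138889.1 overlaps LINC01016 and CACNA1C-AS1 overlaps CACNA1C, again on the opposite strand, as GP1BA does with CHRNE and TAL1 with AL135960.1.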
